A study of Homo sapiens with 4 samples.

Results

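The data described here are the peaks of a PRMT5 RNA immunoprecipitation (RIP) that lie on 10 listed genes for spliceosomal small nuclear RNAs (snRNAs). PRMT5 is an arginine methyltransferase that works in complex with WDR77. The cells were Jurkat, an immortal line from a human T cell leukemia, grown with the mitogen PHA for 48 hours and crosslinked with UV light (264 nm and 400 mJ in the labels). A FLAG immunoprecipitation gave the RNA that was sequenced in 2 PRMT5 RIP libraries beside 2 input libraries, all 4 from the same stimulated cell line. The study's methods describe lentiviral overexpression in Jurkat cells but do not tie it to these libraries by name, and no immunoprecipitation without PRMT5 was analysed here. The authors made 1 peak list of 18993 peaks with 1 pooled value per condition, in RPM (read counts scaled to library size), for PRMT5 RIP and 1 for input. Values per library were not used here, so no spread between replicates can be given and no difference below was tested. The read depth of the libraries is unknown from the list.

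A peak was taken as a member if it overlapped a listed snRNA gene of GRCh38 and was at most 500 nt wide. Each of the 10 genes had exactly 1 such peak, so there are 10 members among 11233 peaks of at most 500 nt and 18993 peaks in all. The gene table used here gives no strand for snRNA genes, so the strand could not be used to choose peaks. Each gene had only 1 peak within the width limit, and the strand reported is that of the peak. Over the whole list the RPM values summed to 755969 for PRMT5 RIP and 489424 for input. Of 10 T cell marker genes, 6 had a peak on their own strand, namely CD3D, CD247, CD2, CD28, LCK and ZAP70, whereas CD3E, CD3G, CD7 and PTPRC had none. None of 9 markers of other cell types had a peak.

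The snRNAs are short noncoding RNAs that, together with proteins, form the particles of the spliceosome. In the major spliceosome, U1 base-pairs with the 5′ splice site, U2 with the branch point, U4 carries U6 into the particle in an inactive pairing, and U5 aligns the exons. In the minor spliceosome, which removes a small class of introns, U11 and U12 take the places of U1 and U2. All of these except U6 and U6atac carry a ring of Sm proteins. PRMT5 is known as the enzyme that dimethylates arginines of several Sm proteins before the SMN complex loads the ring onto the RNA. The members therefore are RNAs of particles whose proteins are textbook PRMT5 substrates, and the comparisons below ask how much of each RNA was in PRMT5 RIP relative to input, whether gene copies differed, and whether the major and minor spliceosome RNAs differed.

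In every member the peak began at the annotated 5′ end of the gene to the nucleotide. RNU1-1 lies on chromosome 1 from 16514122 to 16514285 and its peak, on the minus strand, covered all 164 nt. The peaks of RNU1-3 (minus strand, 16666785 to 16666948) and RNU1-2 (plus strand, 16895980 to 16896143), also on chromosome 1, likewise covered the whole gene. The other 7 peaks stopped between 4 nt and 26 nt short of the annotated 3′ end. RNVU1-7, a variant U1 gene on chromosome 1 from 148038753 to 148038916, lacked the last 25 nt, and RNU2-2 on chromosome 11 from 62841619 to 62841809 the last 26 nt. RNU4-2 and RNU4-1 lie next to each other on chromosome 12, from 120291759 to 120291903 and from 120293093 to 120293237, and each lacked 4 nt. RNU5A-1 on chromosome 15 from 65296051 to 65296167 lacked 17 nt. RNU11 on chromosome 1 from 28648600 to 28648734 lacked 10 nt, and RNU12 on chromosome 22 from 42615244 to 42615393 lacked 25 nt. The covered share of the gene ranged from 83.3% to 100%. Peak edges in the list fell on steps: of all peaks of at most 500 nt, 85.2% had a width that is a multiple of 25 nt, and so did 3 of the 10 members. The part of this in the missing 3′ ends was not tested. The peak caller and its annotation are not given, and whether the exact 5′ starts come from annotated gene ends rather than from the reads was not tested either.

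**Figure D1:**
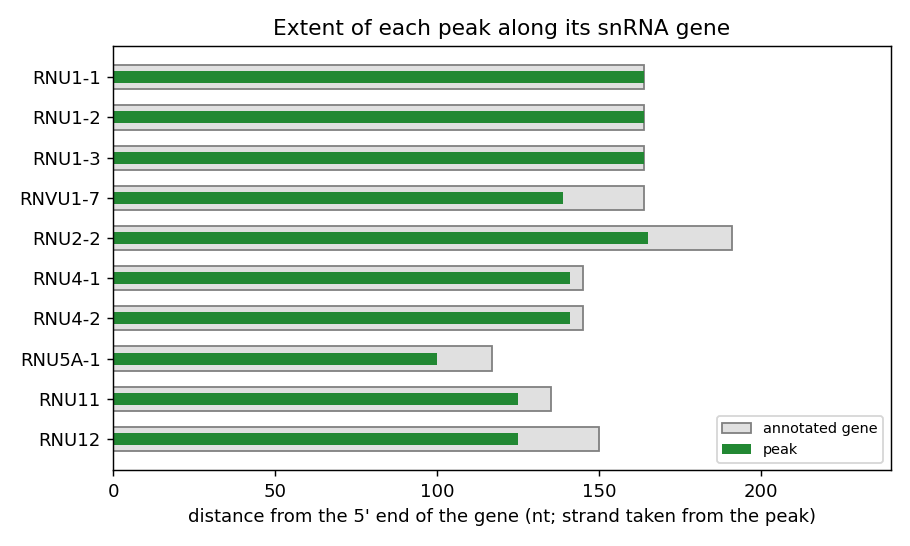
Extent of the PRMT5 RIP peak (green) along each snRNA gene (gray), in nt from the 5′ end, with the strand taken from the peak. All 10 peaks start at the 5′ end, 3 reach the annotated 3′ end, and the other 7 stop 4 to 26 nt before it. Whether peak edges were set by the annotation was not tested.

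Some of these peaks overlap another gene or list more than 1 gene identifier. Those with another gene on the same strand cannot be assigned to the snRNA alone. The peak of RNU2-2 lists 2 gene identifiers, ENSG00000133316.16 and ENSG00000222328.1, and lies within WDR74, a protein-coding gene on the same strand whose 5′ end it shares. The peak of RNU11 lies within the long noncoding gene TAF12-DT on the same strand and lists ENSG00000270103.3 and ENSG00000274978.1. The peak of RNU12 also lists 2 identifiers, ENSG00000270022.3 and ENSG00000276027.1, though no other RefSeq gene overlaps it. The RNU4-1 and RNU4-2 peaks overlap SIRT4, which is on the opposite strand. Apart from RNU2-2, RNU11 and the U4 pair, the other 6 peaks touch no other RefSeq gene.

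U1 gave the highest signal of all members. RNU1-1 (ENSG00000206652.1) had 2013.15 RPM in the RIP against 1715.89 RPM in input, a ratio of 1.17. RNU1-3 (ENSG00000207513.1) had 1866.31 RPM in the RIP against 1593.11 RPM in input, also a ratio of 1.17. RNVU1-7 (ENSG00000206585.1) had 997.84 RPM in the RIP against 848.44 RPM in input, a ratio of 1.18. These 3 copies thus sat at nearly 1 ratio, although their signal differed by 2.02 times between RNU1-1 and RNVU1-7 in PRMT5 RIP and by 2.02 times in input. RNU1-2 (ENSG00000207005.1) had the highest ratio of the U1 copies, with 254.05 RPM in the RIP against 174.34 RPM in input, or 1.46. RNU1-1 exceeded RNU1-2 by 7.92 times in PRMT5 RIP and by 9.84 times in input, and the log2 ratio of RNU1-1 minus that of RNU1-2 was -0.31. U1 genes are near-identical copies, and how reads that match several of them were assigned is not stated, so the level of a single copy is uncertain. Summed over the 4 copies, U1 had 5131.35 RPM in the RIP against 4331.78 RPM in input, which is 90.4% of the PRMT5 RIP signal of all members and 90.7% of their input signal. If shared reads were counted at more than 1 copy, the sums and these shares are too high.

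**Figure D2:**
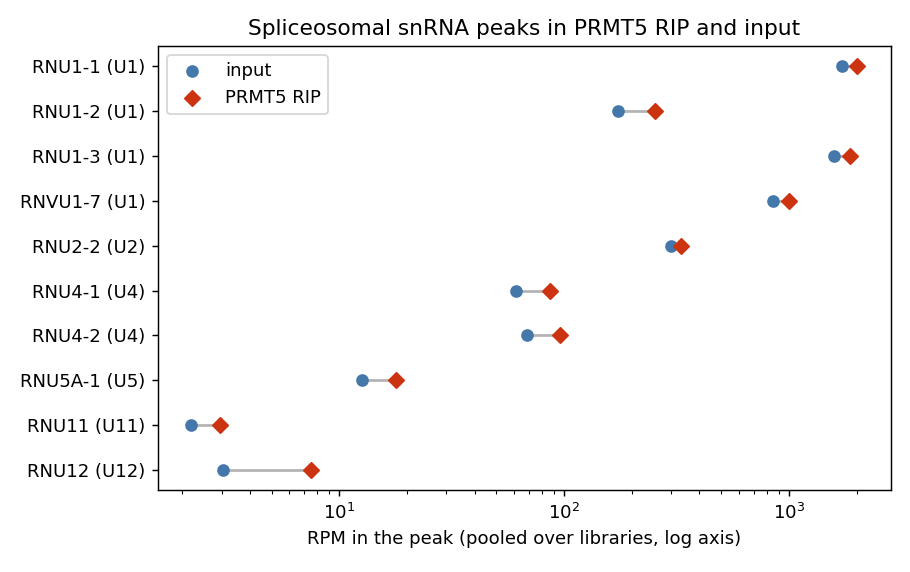
RPM in the peak of each snRNA gene for PRMT5 RIP (diamonds) and input (circles) on a log axis, with 1 pooled value per condition and no error. The diamond lies to the right of the circle at all 10 genes, a direction that 9 of them lose relative to the median of all narrow peaks, and by most at RNU12, where 7.48 RPM stands against 3.03 RPM.

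RNU2-2, a gene for U2 outside the tandem U2 array, had the lowest ratio of the members. It had 332.01 RPM in the RIP against 298.63 RPM in input, a ratio of 1.11. The WDR74 identifier, that of the protein-coding gene it lies in, had 1 further peak, 5925 nt wide and 2048 nt away on the same strand, with 61.83 RPM in the RIP against 25.34 RPM in input, a ratio of 2.44.

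The pair of U4 genes gave almost the same values. They are also near-identical copies, and how reads that match both were assigned is not stated. Their values therefore cannot be taken as independent. RNU4-2 (ENSG00000202538.1) had 95.45 RPM in the RIP against 68.34 RPM in input, a ratio of 1.40. RNU4-1 (ENSG00000200795.1) had 86.21 RPM in the RIP against 61.25 RPM in input, a ratio of 1.41. RNU4-2 was above RNU4-1 by 1.11 times in PRMT5 RIP and by 1.12 times in input. The log2 ratios of the pair were 0.48 and 0.49. RNU5A-1 (ENSG00000199568.1), the U5 member, had 17.87 RPM in the RIP against 12.65 RPM in input. Its ratio of 1.41 was that of U4, at a lower input signal per length, 12.7 RPM per 100 nt of peak against 48.5 RPM per 100 nt for RNU4-2.

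The minor spliceosome members had the lowest signal, and they differed from each other. RNU11 had 2.96 RPM in the RIP against 2.20 RPM in input, a ratio of 1.35, which lies within the range of the major spliceosome members. RNU12 had 7.48 RPM in the RIP against 3.03 RPM in input, a ratio of 2.47, the highest of all members. Rounding of RPM to 0.01 alone leaves RNU11 between 1.340 and 1.351 and RNU12 between 2.463 and 2.474, and counting error could not be computed because the depth is unknown. RNU12 was above RNU11 by 2.53 times in PRMT5 RIP and by 1.38 times in input. A wider peak of 634 nt on the minus strand ran across RNU12 under another identifier, with 1.82 RPM in the RIP against 0.81 RPM in input. Its ratio of 2.25 was close to that of RNU12, and the part of reads from this opposite strand in the RNU12 value was not tested. RNU1-3 was the only other member with a peak across it on the opposite strand. That peak was 1438 nt wide, with 395.13 RPM in PRMT5 RIP, 348.71 RPM in input and a ratio of 1.13.

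Per length, the order of the input levels was RNU1-1 with 1050 RPM per 100 nt of peak, RNU1-3 with 971, RNVU1-7 with 610, RNU2-2 with 181, RNU1-2 with 106, RNU4-2 with 48.5, RNU4-1 with 43.4, RNU5A-1 with 12.7, RNU12 with 2.42 and RNU11 with 1.76. The order in PRMT5 RIP was the same, from 1230 RPM per 100 nt for RNU1-1 to 5.98 for RNU12 and 2.37 for RNU11. No spread is known for these levels, so it cannot be said which neighbours in the order differ beyond error. The RPM of the members spanned 780 times in input and 680 times in PRMT5 RIP.

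The 8 major spliceosome members had log2 ratios from 0.15 to 0.54 with a median of 0.36, and the 2 minor spliceosome members had 0.43 and 1.30. The median of the major members minus that of the minor members was -0.51 on the log2 scale. This difference rested on RNU12: without that gene it was -0.07, and without RNU11 it was -0.94. Summed RPM gave 5662.89 in PRMT5 RIP against 4772.65 in input for the major members, a ratio of 1.19, and 10.44 against 5.23 for the minor members, a ratio of 2.0. Genes are not replicates of a condition, and 2 minor genes at a few RPM give no measure of error, so a difference between the spliceosome classes was not testable here.

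All 10 members had more RPM in PRMT5 RIP than in input, but 9 of the 10 lay below the median ratio of 2.30 over all peaks of at most 500 nt, so that relative to this median only RNU12 stayed above 0 on the log2 scale. The list holds only regions that the authors called as peaks, and a ratio above 1 is common in it. The part of the peak calling in this was not tested. A ratio of at least 2 was reached by 1 of the 10 members, RNU12, against 59.7% of all peaks of at most 500 nt. A ratio under 1 was found in none of the 10 members, against 3.94% of those peaks. The share of peaks with a lower ratio was 7.03% for RNU2-2, 9.07% for RNU1-1, 9.01% for RNU1-3, 9.19% for RNVU1-7, 15.25% for RNU11, 17.31% for RNU4-2, 17.80% for RNU4-1, 17.96% for RNU5A-1, 19.62% for RNU1-2 and 54.95% for RNU12. The members are among the strongest peaks, since 82.0% to 99.9% of peaks had a lower input RPM, and the ratio falls with input in the list, where weak peaks with a low ratio are nearly missing: of 7763 peaks under 1 RPM in input, 25 had a ratio under 1. Where the input was at least 1 RPM, in 3470 peaks, the median ratio was 1.66 and 35.1% reached 2. Within these 3470 peaks the share with a lower ratio was 18.2% for RNU2-2, 21.9% to 22.2% for RNU1-1, RNU1-3 and RNVU1-7, 32.7% for RNU11, 35.7% to 36.8% for the U4 pair and RNU5A-1, 39.4% for RNU1-2 and 77.6% for RNU12. Where it was at least 100 RPM, in 131 peaks that include 5 U1 and U2 members, the median ratio was 1.49 and 38.2% reached 2, while 26.0% were under 1. Within these 131 peaks the share with a lower ratio was 28.2% for RNU2-2, 34.4% for RNU1-1 and 48.9% for RNU1-2.

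**Figure D3:**
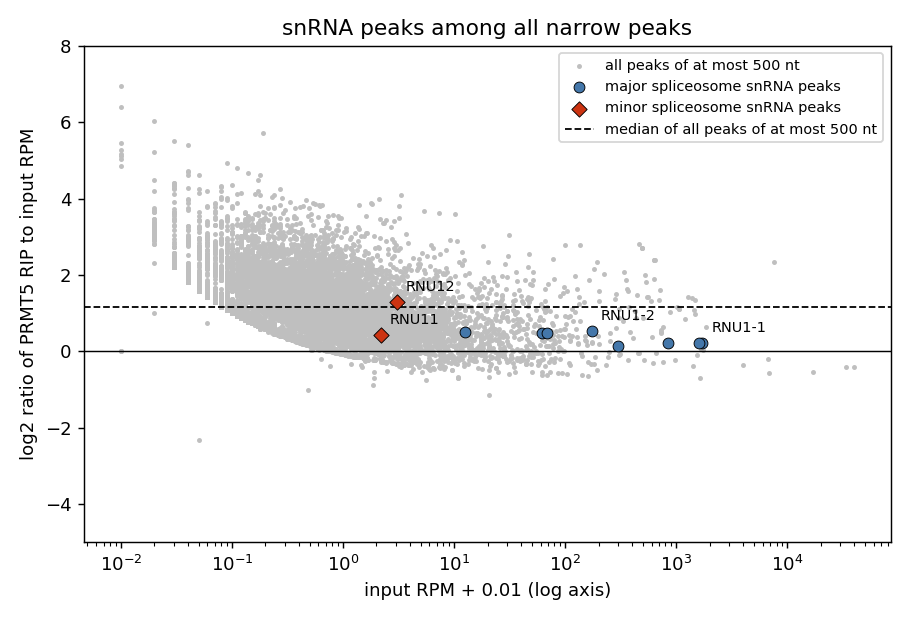
Log2 ratio of PRMT5 RIP to input RPM against input RPM (log axis) for 11233 peaks of at most 500 nt (gray), with a pseudocount of 0.01 RPM, the 8 major snRNA members (circles) and the 2 minor members (diamonds). Of the members only RNU12, at 1.30, lies above the dashed median of 1.16; all 10 lie above the solid line at 0, a direction that 9 of them lose relative to the median.

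Beyond the members, 3 other named snRNA genes had a peak of at most 500 nt. RNVU1-18, another U1 variant gene on chromosome 1, had 95.42 RPM in the RIP against 72.96 RPM in input, a ratio of 1.31. The U5 genes RNU5B-1 and RNU5E-1 were weaker than RNU5A-1. RNU5B-1 had 3.96 RPM in the RIP against 3.87 RPM in input, a ratio of 1.02, and RNU5E-1 had 4.64 RPM against 3.35 RPM, a ratio of 1.39. The 3 U5 copies thus ranged from 0.03 to 0.50 in log2 ratio, a wider range than the 0.31 among the 4 U1 members. The low end rests on RNU5B-1 at a few RPM, far under the U1 members. No spread is known, so it cannot be said that the ranges differ beyond error. The peaks of RNVU1-18 and RNU5B-1 began at the 5′ end of the gene, as in the members. That of RNU5E-1, on the plus strand, began at 11908165, inside a gene that starts at 11908152. Of 28 named U1 genes in RefSeq, 22 had no peak of any width. None of 5 U6 genes had a peak, nor did RNU6ATAC and RNU4ATAC, the minor spliceosome counterparts of U6 and U4, or RNU7-1, the snRNA that acts in histone mRNA 3′ end processing. A gene without a peak in the list may still have had reads.

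The genes for proteins of the same particles were taken from lists of known snRNP components, with 1 peak per gene, the one with the highest input RPM among peaks of at most 500 nt on the gene's strand. Of 40 such genes, 23 had a peak, 10 of these reached a ratio of 2 and none was under 1, with a median ratio of 1.89 against 2.30 for all peaks of that width. The 2 medians are unlike: the first takes the peak of highest input per gene, the second takes every peak, and the ratio falls with input in the list. The same limit holds for the counts of these and the following gene lists. Among the U11/U12 proteins, 3 of 7 genes had a peak and all 3 reached 2: ZCRB1 had 16.64 RPM in the RIP against 7.02 RPM in input, SNRNP35 had a ratio of 2.93, and PDCD7 had the highest, 3.90. Among the U2 proteins, 7 of 13 genes had a peak and none reached 2, from SF3B2 with 1.03 to SNRPB2 with 1.89. Among the U5 proteins, 3 of the 7 genes with a peak reached 2. CD2BP2 did so only exactly, with 0.64 RPM in the RIP against 0.32 RPM in input. Rounding could move it out of this count and of the 10 above. PRPF8, the large protein at the centre of the spliceosome, had a ratio of 6.52 from 1.63 RPM against 0.25 RPM. Among the U4/U6 and tri-snRNP proteins, 4 of the 5 genes with a peak reached 2, with SNU13 highest at 6.30 and PPIH lowest at 1.22. Among U1 proteins only SNRPC had a peak, with a ratio of 1.23. Beside all of these list counts stands the share of 59.7% of all peaks of at most 500 nt that reached 2, and the lists are too small to set apart from it. These are values of mRNAs, most of them at low RPM, and not of the proteins.

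Of the 8 Sm protein genes, 4 had a peak and 2 reached a ratio of 2. SNRPB had 25.60 RPM in the RIP against 7.25 RPM in input, a ratio of 3.53 and the highest of this list, and SNRPN had the lowest, 1.37. Of 19 genes for the methylosome and for snRNP assembly, 13 had a peak, 8 reached 2, near the 59.7% of all peaks of at most 500 nt, and none was under 1. The highest was COPRS, which encodes a PRMT5 partner protein, with 6.49. The lowest was PRMT5 itself, with 34.10 RPM in the RIP against 33.63 RPM in input, a ratio of 1.01. This is the peak of highest input among the 3 peaks of at most 500 nt on PRMT5, and it does not describe the others. SMN1 and SMN2 are near-identical genes whose reads could be split either way, and they had ratios of 6.0 and 1.52. Both rest on low values: 0.96 RPM in the RIP against 0.16 RPM in input over 75 nt for SMN1, and 0.32 RPM against 0.21 RPM over 25 nt for SMN2. Among 13 other small noncoding RNA genes, 6 had a peak, and these lay on either side of the snRNAs: the RNase MRP RNA RMRP was highest with 5.05 and the 7SK RNA, RN7SK, lowest with 0.685, and 4 of the 6 were under 1.

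**Figure D4:**
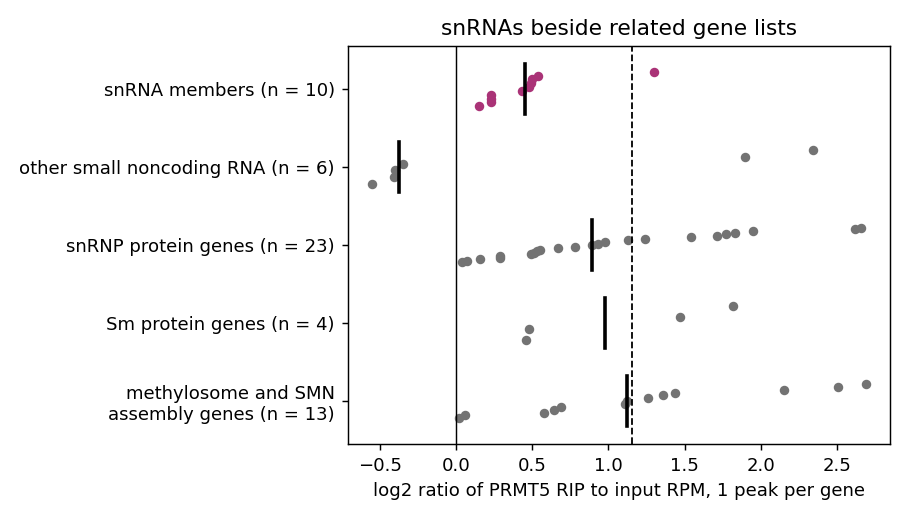
Log2 ratio of PRMT5 RIP to input RPM, 1 peak per gene, for the 10 snRNA members and 4 related gene lists, with the list median (short bar), 0 (solid line) and the median of all peaks of at most 500 nt (dashed line, 1.16). The snRNA members lie between 0.15 and 1.30, whereas the other small noncoding RNAs run from -0.55 for RN7SK to 2.34 for RMRP.

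The peaks on other genes that lay nearest to the median of the members on the log2 scale, which turned back to RPM is 156 in the RIP against 109 in input, were on mRNAs. ELOB, an elongin subunit, had a peak of 152.85 RPM in the RIP against 115.30 RPM in input at a distance of 0.08 on the log2 scale of both values, and another at 0.14. TMSB4X, which encodes thymosin beta 4, had 144.46 RPM against 107.66 RPM at a distance of 0.11. Likeness here is over 2 pooled values only.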

How the data were processed

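The deposited peak list gives RPM values, rounded to 0.01, for PRMT5 RIP (2 libraries pooled) and input (2 libraries pooled). The submitters' processing notes name fastp, HISAT2 and hg38, without versions; the peak caller, the annotation, the depth per library and the treatment of reads that match several places are not given in the sources used here. RPM scales each condition to its reads, so a few very abundant RNAs move all other values, and short multi-copy RNAs depend on how shared reads were placed. The columns with the authors' own log2 fold change, p-value, FDR and score compare PRMT5 RIP with input and were not used.

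Positions are given counted from 1, by adding 1 to each deposited start. Genes came from RefSeq (GRCh38.p14), by symbol and overlap. All 10 members were found there, and of 51 snRNA symbols in the lists 47 were. Strands came from the RefSeq promoter table, which holds no snRNA gene. The measure was PRMT5 RIP RPM over input RPM, and on the log2 scale with a pseudocount of 0.01 RPM. Peaks with a ratio of at least 2 or under 1 were counted. No test was made, because 1 pooled value per condition has no error. All members were named, with the highest and lowest gene of each list and the 3 nearest peaks on other genes; further genes of the lists, the marker genes and the other snRNA genes were named after their values were seen. The members and lists were chosen with earlier results of these data known. Alternatives covered the pseudocount, the scaling, the width and overlap of peaks, the limits and the genes. The overlap and the ratio were tested on simulated data. Sequences of the snRNAs were not used here. Python 3.11.15, pandas 2.3.3, numpy 2.4.6 and matplotlib 3.10.9 were used.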

Additional observations from a re-analysis of the deposited data

How the results depend on the processing

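No paired analysis was possible because the list holds 1 pooled value per condition; nor could a replicate be left out. No member gene had several peaks of at most 500 nt, so summing peaks gave nothing to compare for the members. Some genes of the other lists had several such peaks, for example SF3A1 with 7 and GEMIN4 with 6. For these only the peak of highest input was used, and summing was not tried. A shift under 0.1 in log2 was taken as no change. The median log2 ratio of the members, 0.45, became -0.70 relative to the median of all peaks of at most 500 nt and -0.12 relative to that of peaks at or above 100 RPM in input. Each scaling subtracts 1 constant from every gene, so the single values only show which members lie under that median: RNU1-1 (-0.93 and -0.34), RNU1-2 (-0.61 and -0.03), RNU1-3 (-0.93 and -0.34), RNVU1-7 (-0.92 and -0.34), RNU2-2 (-1.0 and -0.42), RNU4-1 (-0.66 and -0.08), RNU4-2 (-0.68 and -0.09), RNU5A-1 (-0.66 and -0.07) and RNU11 (-0.73 and -0.15). RNU12 stayed above 0, with 0.14 and 0.73. A limit of 3 in place of 2 left 0 members. The share of peaks reaching 2 was 59.7% over all peaks of at most 500 nt, 35.1% with at least 1 RPM in input, 38.2% with at least 100 RPM and 28.6% in only 7 peaks on other small noncoding RNA genes, and the share under 1 was 3.94%, 12%, 26.0% and 71.4%. The major minus minor difference of -0.51 kept its sign under every alternative tried, but was -0.75 with RPM summed over genes, -0.34 with a pseudocount of 1, -0.38 without RNU1-1, RNU1-3, RNVU1-7 or RNU2-2, -0.63 without RNU1-2, RNU4-1, RNU4-2 or RNU5A-1, -0.94 without RNU11 and -0.07 without RNU12. The other alternatives for width, overlap, pseudocount and named copies moved none of these counts, medians or ranges of copies by more than the limits used. Single values moved further only for RNU11 (0.31) and RNU12 (1.07) with a pseudocount of 1. Taking peaks of either strand could not change a count, because no strand was known for the snRNA genes and the main setting already took both.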

Other observations

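RNU2-1, the gene of the tandem U2 array on chromosome 17, had no peak of at most 500 nt. The array lay under 1 peak of 74553 nt on the minus strand, which lists 14 identifiers and runs over 12 further snRNA genes that RefSeq leaves without a family symbol. It had 8.55 RPM in the RIP against 7.20 RPM in input, a ratio of 1.19. A single narrow peak inside it, 50 nt wide from 43251829 to 43251878, had 7.72 RPM against 6.09 RPM, a ratio of 1.27. Unlike the member peaks, it covered only the 3′ end of its gene, which runs from 43251829 to 43252019, with the strand taken from the peak. Both ratios are near that of RNU2-2, 1.11. The 1.27 of the 50 nt peak lies under the median of 2.30 over peaks of at most 500 nt, a set that leaves out the wide peak. How many RNAs of the array the value stands for is unknown.

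LOC124904613, an snRNA gene of 164 nt on chromosome 1 from 146376807 to 146376970 that RefSeq gives no family symbol, had a peak over its whole length on the plus strand with 149.40 RPM in the RIP against 99.85 RPM in input. Its ratio of 1.5 was close to the 1.46 of RNU1-2.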
